A study of Mus musculus with 2 samples.

Results

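The genes examined are 10 genes of insulin and insulin-like growth factor (IGF) signalling and of its repressed targets: the adaptors Irs1 and Irs2, the receptors Insr and Igf1r, the ligands Igf1 and Igf2, and Pck1, Pck2, G6pc and Igfbp1. They were taken by name, and a peak belonged to a gene when the authors' deposited annotation assigned it that gene symbol. This gave 65 of the 99797 deposited peaks, spread over 9 of the 10 genes, with Igfbp1 counted as 0.

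The peaks come from CUT&Tag, in which an antibody tethers a transposase that cuts and tags the DNA beside the antibody's target. The 2 libraries were made from hippocampus of C57BL/6J mice with the genotype CamK-PARIS and no treatment, 1 with anti-FLAG to capture PARIS and 1 with IgG as the negative control. PARIS (Zfp746) is a zinc-finger repressor. The labels give neither the promoter behind the name CamK-PARIS nor the animals' age or number, and both libraries carry the same genotype, so no mouse without it was compared. Only the anti-FLAG peak list was analysed here, and IgG enters through the authors' peak calling alone. With 1 library per antibody there is no replicate, no test and no difference between antibodies below. Every value describes 1 library, and the 95% intervals cover counting error over peaks or genes only. They are Wilson intervals for shares and binomial order-statistic intervals for medians. Both treat peaks as independent, although 27 of the 65 were assigned to Igf1r, so they may be too narrow.

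Insulin and the IGFs bind receptor tyrosine kinases, which phosphorylate the insulin receptor substrates and so switch on PI3-kinase and AKT. AKT keeps FoxO factors out of the nucleus, and genes that FoxO drives through insulin response elements, such as Igfbp1, G6pc and Pck1 in liver, are then turned down. PARIS is known from earlier work as a repressor that binds insulin response sequences in the promoter of Ppargc1a. In the hippocampus, Igf1r and Insr are neuronal receptors with roles in growth and synaptic function.

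The highest peaks of this gene group lay across the starts of its adaptor genes. Irs1 and Irs2 each had a peak of over 2 kb across the gene start with maximum signals of 445 and 387, against a median of 101 over all peaks. The Irs2 maximum lay 1265 bp upstream, inside the non-coding gene 9530052E02Rik, and that gene and Irs2 cannot be told apart there. Igf1r and Pck2 had lower peaks at their starts. Pck1, G6pc, Igfbp1, Insr, Igf1 and Igf2 had no peak within 1 kb of the gene start in the GENCODE annotation. Igf1r had the most peaks, 27, most of them inside an intron.

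Promoter sequences are shown for the 5 genes in which a searched word was found. The promoters of Pck1, Igf1r, Igf1 and Igf2 held none of the words within the 250 bases searched and are not shown. Sequence farther upstream was not searched, so elements there would be missed. Each promoter is the 250 bases before the gene's start in RefSeq (GRCm38.p6), 5′ to 3′ on the gene's strand, and for G6pc only the 95 bases that also precede the GENCODE start. Capitals mark 4 words searched on both strands: TATTTTT and TATTTTG, the insulin response sequence reported for PARIS; CAAAACA, the core of the FoxO insulin response element, whose reverse is TGTTTTG; and GTAAACA, the FoxO consensus, whose reverse is TGTTTAC. The promoters of Irs1 (chr1:82291440-82291689, minus strand) and Irs2 (chr8:11008930-11009179, minus strand) lay wholly under a peak. The promoter of Pck2 (chr14:55540016-55540265, plus strand) had 173 bases under a peak. Those of Igfbp1 (chr11:7197537-7197786, plus strand) and G6pc (chr11:101367466-101367560, plus strand) had none.
Irs1 promoter: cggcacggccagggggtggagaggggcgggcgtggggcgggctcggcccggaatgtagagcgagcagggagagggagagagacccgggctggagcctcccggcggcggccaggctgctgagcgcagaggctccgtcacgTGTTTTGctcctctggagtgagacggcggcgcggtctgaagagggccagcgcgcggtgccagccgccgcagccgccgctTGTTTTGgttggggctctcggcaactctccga
Irs2 promoter: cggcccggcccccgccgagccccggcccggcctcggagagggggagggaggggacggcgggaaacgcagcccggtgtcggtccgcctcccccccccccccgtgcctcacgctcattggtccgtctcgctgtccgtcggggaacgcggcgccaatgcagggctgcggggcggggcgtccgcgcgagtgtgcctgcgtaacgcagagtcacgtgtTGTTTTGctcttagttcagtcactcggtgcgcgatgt
Pck2 promoter: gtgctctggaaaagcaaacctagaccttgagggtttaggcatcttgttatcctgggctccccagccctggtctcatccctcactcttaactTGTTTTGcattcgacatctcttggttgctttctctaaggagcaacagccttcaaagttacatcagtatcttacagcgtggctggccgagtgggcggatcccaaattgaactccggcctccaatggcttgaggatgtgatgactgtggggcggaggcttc
Igfbp1 promoter: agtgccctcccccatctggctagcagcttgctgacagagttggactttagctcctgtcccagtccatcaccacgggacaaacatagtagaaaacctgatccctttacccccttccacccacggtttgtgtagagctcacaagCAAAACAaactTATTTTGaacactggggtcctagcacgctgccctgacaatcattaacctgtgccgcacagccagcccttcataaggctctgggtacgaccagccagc
G6pc promoter: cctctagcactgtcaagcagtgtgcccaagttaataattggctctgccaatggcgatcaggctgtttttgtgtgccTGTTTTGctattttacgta

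The other 3 stretches come from the peaks themselves, on the plus strand: 200 bases around the region of maximum signal of the Irs2 peak (chr8:11009648-11009847), 200 bases around that of the highest Igf1r peak, in intron 2 (chr7:68128956-68129155), and the whole peak nearest to Pck1 (chr2:173151094-173151272). The Irs2 stretch holds 23 CpG dinucleotides, the Igf1r stretch 9 and the Pck1 stretch 2.
Irs2 peak: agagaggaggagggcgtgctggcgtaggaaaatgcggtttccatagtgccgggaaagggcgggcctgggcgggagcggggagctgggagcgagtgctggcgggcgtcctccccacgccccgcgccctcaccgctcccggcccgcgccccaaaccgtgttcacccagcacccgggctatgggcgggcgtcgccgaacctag
Igf1r intron 2 peak: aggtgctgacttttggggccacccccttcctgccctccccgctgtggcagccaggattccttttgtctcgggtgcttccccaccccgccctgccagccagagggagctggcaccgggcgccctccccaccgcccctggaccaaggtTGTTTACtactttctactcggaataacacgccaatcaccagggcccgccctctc
Pck1 upstream peak: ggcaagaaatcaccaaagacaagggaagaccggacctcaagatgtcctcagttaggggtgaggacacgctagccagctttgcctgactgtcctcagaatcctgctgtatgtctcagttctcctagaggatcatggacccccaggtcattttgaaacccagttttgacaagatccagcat

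In these sequences the Igfbp1 promoter carried CAAAACA 108 bases and TATTTTG 97 bases before the start, and no peak was near it. G6pc carried TGTTTTG 174 bases before its RefSeq start, which lies downstream of the GENCODE start. The same word stood 111 and 32 bases before the Irs1 start, 37 before the Irs2 start and 159 before the Pck2 start. Neither the Irs2 nor the Pck1 stretch held any of the 4 words.

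Signal is given as the authors' maximum signal, the highest coverage in a peak, and total signal, the coverage summed over its bases. A peak is said to have a constant height when its total signal is at least 99% of maximum signal times width, so that it looks like a single block. Such blocks made up 43 of the 65 peaks (66.2%, 54.0 to 76.5) and 63.3% of all peaks. In the whole list no block was wider than 701 bp, while the maximum signal of blocks ran from 5 to 234. How blocks arise was not tested. Whether their heights can be compared with those of other peaks is therefore unknown. The other 22 peaks had a median width of 666 bp and a median maximum signal of 121.5, against 238 bp and 92 for the blocks.

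Seen over the whole group, 9 of 10 genes had an assigned peak, where 72.7% of the 21911 protein-coding genes did. A peak that was not a block was assigned to 7 of the 10, against 52% of protein-coding genes. The median number of assigned peaks was 4 per gene, against 2 over protein-coding genes. The median gene length was 19.9 kb here (quartiles 10.5 and 73.7) and 17.4 kb over protein-coding genes (quartiles 6.53 and 45.2), so the longer members exceed the longer genes of the background. Per 10 kb of gene body the median was 0.4675 peaks here (95% interval 0 to 0.855), against 0.3339 over protein-coding genes, which lies inside that interval. The median maximum signal of the 65 peaks was 97 (95% interval 79 to 111), against 101 over all peaks, and 4 of them reached the 189 that marks the 90th percentile of the list. The median signal and the share of blocks were thus close to those of all peaks. The number of assigned peaks per gene and the shares of genes with any assigned peak were higher than over protein-coding genes. These counts include peaks far outside a gene, up to 140738 bp upstream for Igf1. The share with a peak within 1 kb of an assigned transcription start was not higher, at 4 of 10 against 42.5%. Without replicates or a test, and with 10 genes, all of these comparisons are descriptions.

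**Figure D1:**
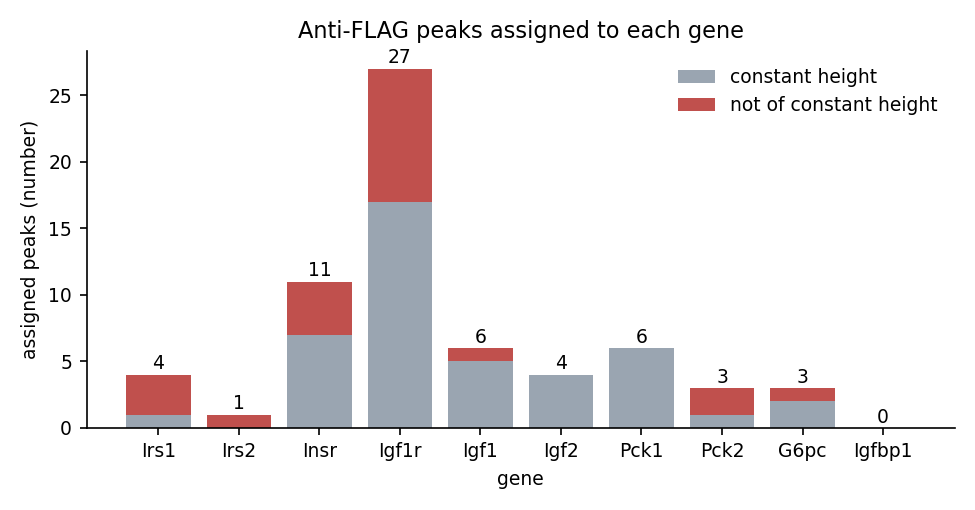
Number of anti-FLAG peaks that the authors' annotation assigned to each gene (bars, stacked by peak shape; 1 library). Igf1r holds 27 of the 65 peaks, and Irs2 has a single peak that is not a block.

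Irs1 and Irs2 encode the docking proteins that carry the signal from both receptors to PI3-kinase. Irs1 (ENSMUSG00000055980, chromosome 1, 82233101 to 82291416, minus strand) had 4 assigned peaks with maximum signals of 58, 174, 256 and 445. The highest spanned chr1:82290230-82292478, a width of 2249 bp that runs from -1062 to 1186 bp relative to the gene start. It ranked 509th of all peaks by maximum signal, 92nd by total signal (378703) and 161st by width. A second peak of 671 bp followed it upstream after a gap of 124 bp and reached 256. The remaining pair lay in the gene's only intron, at 8044 and 30941 bp from the start, and the farther of them was the gene's only block.

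Irs2 (ENSMUSG00000038894, chromosome 8, 10984681 to 11008458, minus strand) had 1 assigned peak, at chr8:11007364-11010099. It was 2736 bp wide, the 61st widest of the list, and ranked 872nd by maximum signal and 234th by total signal (280018). The peak ran from -1641 to 1094 bp relative to the gene start, but its region of maximum signal was 1265 bp upstream. That region lies inside 9530052E02Rik, a non-coding gene on the opposite strand whose start is also under the peak, so the 2 genes cannot be told apart here. A block of 84 bp with a maximum signal of 103 stood in the Irs2 intron and had been assigned to 9530052E02Rik.

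Together the adaptors held 5 of the 65 peaks (7.69%) and 34.3% of their summed total signal. Of the 8619 protein-coding genes with a peak within 1 kb of the gene start, the median of the highest maximum signal there was 136. The start peak of Irs1 was higher than that of 98.9% of all protein-coding genes, those without a start peak included, and that of Irs2 higher than that of 98.3%. By the width of the start peak the shares were 99.7% for Irs1 and 99.9% for Irs2. Both genes thus stood at the same end of the range, with similar heights and widths.

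**Figure D2:**
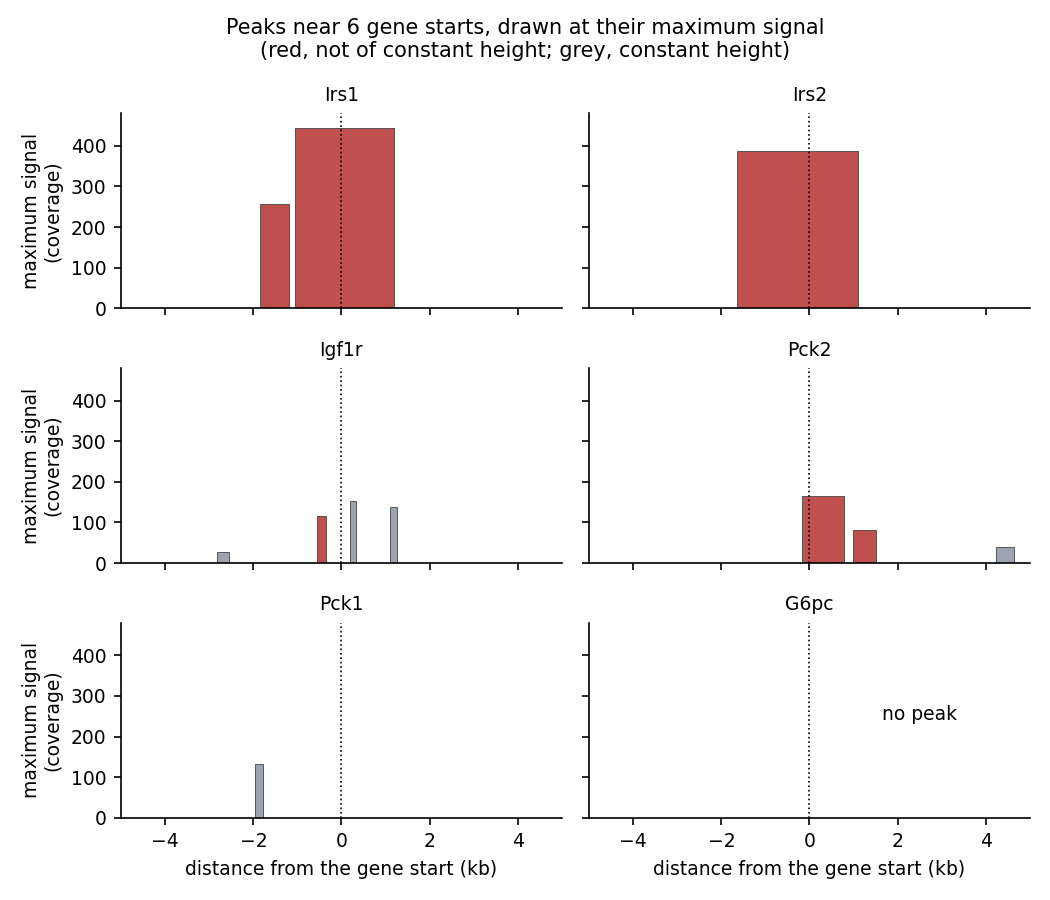
Peaks within 5 kb of the start of 6 genes; the horizontal axis is the distance from the gene start on the gene's strand (kb), and each box spans a peak and is drawn up to its maximum signal (coverage), which is reached only somewhere inside red peaks. Irs1 and Irs2 have the wide peaks of 445 and 387 across the start, Igf1r and Pck2 lower ones, Pck1 a block of 132 upstream, and G6pc none.

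Igf1r and Insr encode the related receptors for the IGFs and insulin. Igf1r (ENSMUSG00000005533, chromosome 7, 67952827 to 68233668, plus strand) is 280.8 kb long and had 27 assigned peaks, more than 98.5% of protein-coding genes. Their maximum signal ran from 7 to 233 with a median of 97, and 10 of them were not blocks. At the 5′ end, 4 narrow peaks of 132 to 273 bp lay between -2816 and 1264 bp of the GENCODE start. Their maximum signals were 27, 116, 153 and 138, and all but the one of 116 were blocks. The one of 116 began 13 bp inside the start that RefSeq gives, which is upstream of the GENCODE start. None of the 4 approached the Irs1 or Irs2 peak in height or width.

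The next 71.4 kb of Igf1r had no peak. Intron 2 then held 17 peaks that the authors classed as intronic, of which 8 were not blocks. The highest peak of the gene was among them: chr7:68128685-68129495, 811 bp wide, where the maximum signal was 233 and the total signal ranked 5299th. Its central sequence, shown above, is 65% GC and carries the FoxO word GTAAACA on the minus strand. The next highest in the intron were peaks of 146 and 144, 671 and 1026 bp wide, farther downstream. Another 2 peaks in this stretch were classed as promoter because a short internal transcript starts there, and 1 of these is among the 3 Igf1r peaks within 1 kb of an assigned transcription start site (TSS). The last assigned peak lay past the 3′ end, in an exon of Pgpep1l.

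Insr (ENSMUSG00000005534, chromosome 8, 3122061 to 3279617, minus strand) had 11 assigned peaks, all inside the gene, with maximum signals from 15 to 136 and a median of 79. The nearest to the gene start lay 19506 bp inside it, over the antisense gene Gm16180, and the 5′ end had none. Of the 11 peaks, 4 were not blocks, and 6 lay in intron 2, where the maximum signal ran from 63 to 130. The highest, at 136, was a block of 223 bp in exon 12 of 21 (chr8:3173558-3173780).

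Peaks per length set the receptors apart less than their counts do. Igf1r had 24 peaks in the gene body, or 0.855 per 10 kb, and Insr 11, or 0.698 per 10 kb. The 2489 protein-coding genes of at least 100 kb lay around a median of 0.417 (quartiles 0.231 and 0.701). The 3 genes nearest to Igf1r in length had 0.320 (Plppr1), 0.213 (Ankrd44) and 0.462 (Wdr7) per 10 kb. Igf1r was above the upper quartile and all 3 of these genes, and Insr just below that quartile.

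**Figure D3:**
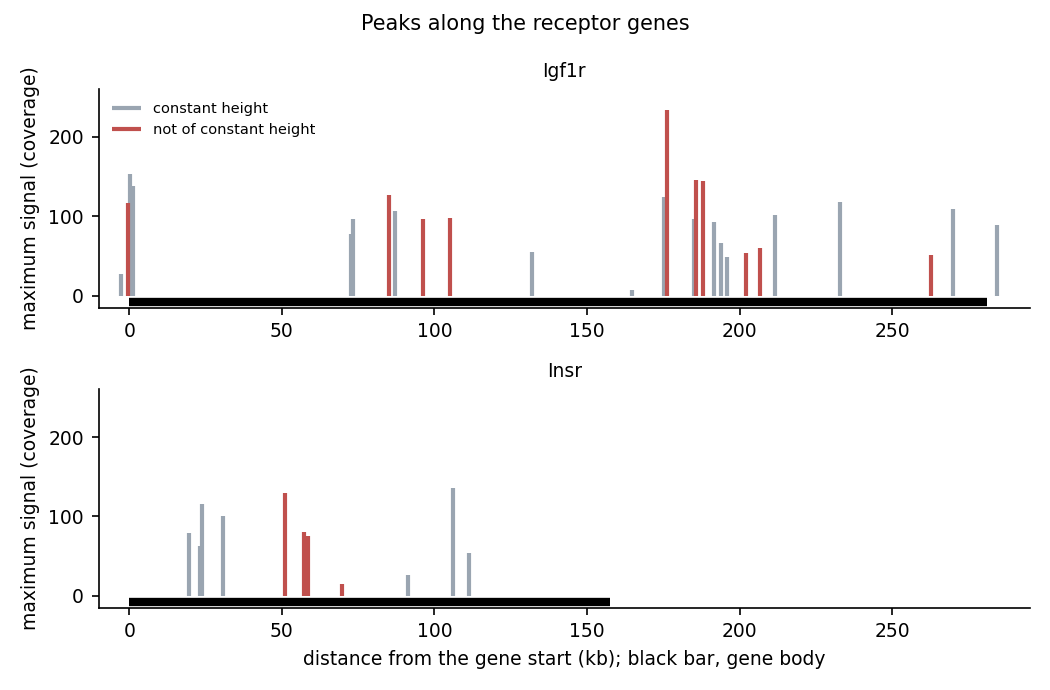
Assigned peaks along Igf1r and Insr; each line stands at the middle of a peak, its height is the maximum signal (coverage), the horizontal axis is the distance from the gene start (kb) and the black bar is the gene body. Igf1r has peaks at its start, none for 71.4 kb, and its highest peak of 233 far inside intron 2; Insr has none within 19506 bp of its start.

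The assigned peaks of the ligand genes lay mostly outside the genes. Igf1 (ENSMUSG00000020053, chromosome 10, 87858265 to 87937042, plus strand) encodes the secreted growth factor IGF-1, and its 6 assigned peaks reached 38, 51, 100, 115, 129 and 133. Of these, 5 were intergenic, 41027 to 140738 bp upstream, and all 5 were blocks. The only assigned peak inside the gene, in intron 3 of 4, was 640 bp wide and had a maximum signal of 51. A block of 93 in intron 4 had been assigned to Tyms-ps. The gene start was 21710 bp from the nearest peak of the list. Igf1 had 0.254 peaks per 10 kb of gene body, close to Gm43302 (0.254) and Gm15262 (0.254) and below Sec24b (0.888), its nearest genes in length.

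Igf2 (ENSMUSG00000048583, chromosome 7, 142650766 to 142666816, minus strand) encodes IGF-2 and lies in an imprinted cluster. Its 4 assigned peaks were all blocks, with maximum signals of 48, 55, 128 and 131. The 2 highest lay 24282 and 33864 bp downstream of the assigned start, and the farther one fell in an exon of the non-coding gene Gm33148. The peak of 55 (chr7:142669918-142670302) was at distance 0 from its assigned start, but that transcript belongs to Gm49394 in GENCODE M21. Measured from Igf2's own starts, the nearest peak of the list was 2081 bp away and had been assigned to the antisense gene Igf2os. Igf2 is thus counted below as a gene with a start peak only under the authors' assignment.

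Pck1, G6pc and Igfbp1 are the textbook insulin-repressed genes of liver. Pck1 (ENSMUSG00000027513, chromosome 2, 173153048 to 173159273, plus strand) encodes the cytosolic enzyme that commits carbon to gluconeogenesis. Its 6 assigned peaks were all blocks, with maximum signals of 49, 59, 65, 79, 111 and 132, and none lay inside the gene. The highest was also the nearest, 179 bp wide and 1777 bp upstream. The others lay between 9371 and 24550 bp away.

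G6pc (ENSMUSG00000078650, chromosome 11, 101367561 to 101377903, plus strand) encodes the glucose-releasing phosphatase of liver and kidney. It had 3 assigned peaks, all intergenic, with maximum signals of 81, 110 and 171. The peak of 171 was 661 bp wide, was not a block and lay 7786 bp upstream (chr11:101359577-101360237). The other two were blocks past the gene's 3′ end. Igfbp1 (ENSMUSG00000020429, chromosome 11, 7197782 to 7202546, plus strand), which encodes a secreted binder of IGFs, had 0 assigned peaks. The nearest peak of the list was 16083 bp from its start, was assigned to its neighbour Igfbp3 and reached 160.

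Pck2 (ENSMUSG00000040618, chromosome 14, 55540266 to 55551242, plus strand), which encodes the mitochondrial form of the enzyme, differed from Pck1. All 3 of its peaks lay at the start of or inside the gene, within 1 kb of an assigned TSS, with maximum signals of 165, 81 and 40. The first (chr14:55540093-55541041) was 949 bp wide, ran from -173 to 775 bp relative to the gene start and ranked 7205th by total signal. The antisense gene Gm10876 overlaps the first 2 peaks, and the third was a block. By its start peak Pck2 stood above 85.2% of protein-coding genes, well below Irs1 and Irs2.

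**Figure D4:**
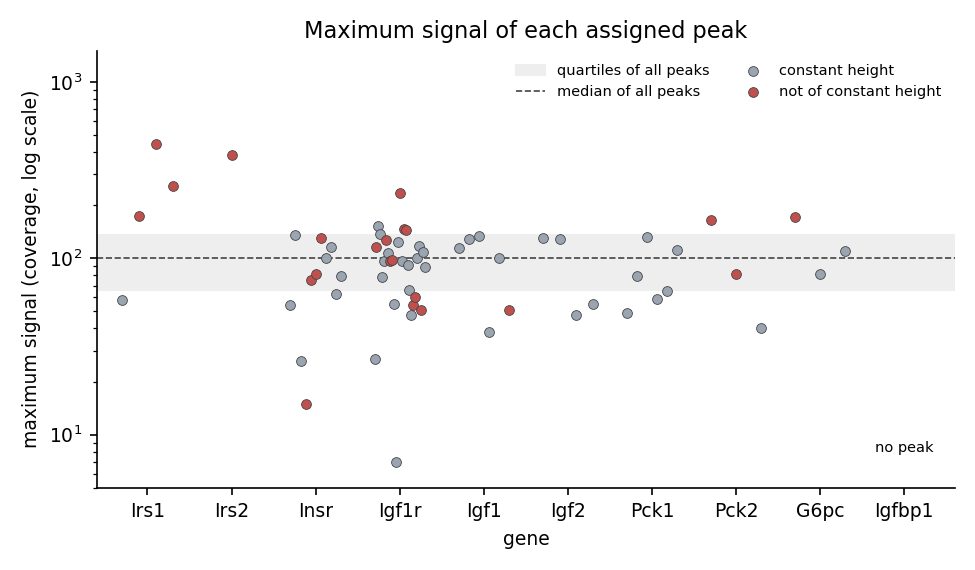
Maximum signal (coverage, log scale) of each of the 65 assigned peaks by gene, in order of genome position within a gene (1 library); the band and dashed line are the quartiles and median of all peaks. The Irs1 and Irs2 peaks of 445 and 387 are the highest, most others lie within or below the band, and Igfbp1 has no peak.

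By the authors' distances, 4 of 10 genes (Irs1, Pck2, Igf1r and Igf2) had a peak within 1 kb of an assigned TSS, against 42.5% of protein-coding genes. With blocks left out it was 3 of 10 (Irs1, Pck2 and Igf1r), against 28.8%. Counting any peak within 1 kb of the gene start in GENCODE, it was again 4 of 10, with Irs2 in place of Igf2, against 39.3%. These shares are near the background. Of the 65 peaks, 33 (50.8%, 38.9 to 62.5) were intronic, against 38.0% of all annotated peaks, and 20 of the 33 belong to Igf1r.

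The starts with and without a peak were also compared in base composition, a comparison added after the values were seen. Their CpG ratios overlapped. The CpG ratio, observed over the number implied by the C and G content within 500 bp of the gene start, was 1.05 for Irs2, 0.959 for Igf1r, 0.709 for Insr and 0.704 for Irs1. It was 0.425 for Igfbp1, 0.416 for Pck2, 0.313 for Pck1, 0.218 for G6pc, 0.186 for Igf1 and 0.0606 for Igf2. At a ratio of 0.5 or more, 3 of 4 genes had a peak within 1 kb of the start, with Insr the exception, and 57.9% of 11732 protein-coding genes did. Below it 1 of 6 did, Pck2, and 18.0% of 10179 protein-coding genes did. With 4 and 6 genes, these counts are near the shares over protein-coding genes. The part of CpG content in the contrast of Irs1 and Irs2 with Pck1, G6pc and Igfbp1 was not tested.

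The motif search used windows of 200 bp around the region of maximum signal. TATTTTT or TATTTTG was in 5 of 65 windows (7.69%, 3.33 to 16.8), against 9.95% of all peak windows. In windows 1000 bp to either side, the share was 11.5% for the 65 peaks and 13.6% for all peaks. The 5 windows were 3 of Igf1r, 1 of Igf1 and 1 of Insr, with maximum signals from 26 to 100, all below the median of the list. CAAAACA was also in 5 windows, against 5.43% of all peak windows, and GTAAACA in 3, all of Igf1r, against 2.29%. A match is a match of letters and no binding site.

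In promoters the words were placed differently. RefSeq promoters matched 9 of the 10 genes, all but Insr, with 12 starts because Igf2 has 4. CAAAACA was in 5 of the 12 promoters (Irs1, Irs2, Pck2, G6pc and Igfbp1), against 5.56% of 32851 RefSeq promoters. TATTTTT or TATTTTG was in that of Igfbp1 alone, against 10.4%, and GTAAACA in none, against 3.17%. Of the 5 genes with CAAAACA, 3 had a peak over the start, while the starts of G6pc and Igfbp1 lay 7324 and 16083 bp from the nearest peak.

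Other genes of the pathway were given as 7 lists with 66 genes, all of which could be matched. A peak was assigned to 60 of them, and 40 had a peak within 1 kb of a TSS (60.6%), 29 of which had one that was not a block. Over protein-coding genes the shares were 72.7% with an assigned peak, 42.5% with one within 1 kb and 28.8% with one there that was not a block. The lists below hold 4 to 15 genes each and are to be read against the 42.5%, which mixes starts of high and low CpG ratio. The CpG ratios of the listed genes were not compared. The PI3-kinase and AKT arm had a start peak in 13 of 14 genes. It was 5 of 7 for the IGF binding proteins other than Igfbp1, 6 of 11 for adaptors, 8 of 15 for targets and effectors such as the FoxO genes, and 4 of 6 for brakes on the signal. Among hormones and receptors it was 1 of 4, and among other insulin-repressed genes 3 of 9.

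The 5 highest start peaks of these lists were those of Phlpp1 (405), an AKT phosphatase; Pik3ca (375), a catalytic subunit of PI3-kinase; Rptor (333), the scaffold of mTOR complex 1; Shc1 (298), an adaptor of receptor tyrosine kinases; and Ptpn1 (264), the phosphatase that switches off the insulin receptor. By the same measure, the highest peak within 1 kb of an assigned TSS, Irs1 had 445, Pck2 165, Igf1r 153 and Igf2 55. The Igf1r and Igf2 values are those of blocks. Irs2 had none by this measure, since its peak of 387 was assigned a distance of -1265 bp. Higher peaks farther from a TSS were assigned to Foxo6 (554, nearest peak at 3402 bp) and Fbp1 (421, nearest peak at -9686 bp), named after their values were seen.

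Markers of cell types were counted beside the tissue label, against 72.7% of protein-coding genes with an assigned peak and 42.5% with one within 1 kb. Of the neuronal list, 7 of 7 marker genes of hippocampal excitatory neurons had an assigned peak, 5 within 1 kb of a TSS. All 3 markers each of astrocytes, oligodendrocytes and microglia had an assigned peak, with 0, 1 and 1 within 1 kb. Of 7 hepatocyte markers 2 had an assigned peak and 0 had one within 1 kb. With lists of 3 to 7 genes these counts do not identify the tissue. Peaks do not measure expression, and whether the liver-type genes Pck1, G6pc and Igfbp1 are active in this tissue cannot be read from the list.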

How the data were processed

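CUT&Tag peaks of 1 anti-FLAG library from mouse hippocampus were analysed, with the group taken from the antibody label. Per the labels' protocols, the authors' reads were trimmed, mapped by Bowtie2 (mm10), cleared of duplicates and reads of low quality, and passed to SEACR with IgG as the control. Versions, SEACR settings and the coverage scaling are not given in the sources used here. The deposited values are signal (coverage summed over a peak, and its maximum), in whole numbers. The sequencing depth is unknown, which leaves intervals with counting error over peaks or genes only. The second deposited table assigns 99782 peaks to transcripts and genes; the tool is not stated.

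The members and lists were chosen with earlier results of these data known. Peaks were joined to genes by symbol, and gene positions came from GENCODE M21 (GRCm38, the build of mm10). Coordinates on the assembled chromosomes never exceeded the reference lengths. Protein-coding genes served as the background. All 10 members were named, with for each gene the nearest and the highest peak, the 5 pathway genes with the highest start peak, and the 3 genes nearest in length to Igf1r and Igf1. No test was run, since there is 1 library. Alternatives changed the peak subset, the assignment, the TSS distance, the block threshold, the signal measure, and the motif and window. CpG ratios and the distances to gene starts were added after the values were seen. The scripts' functions were tested on simulated data. Python 3.11.15, pandas 2.3.3 and pysam 0.24.0 were used.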

Additional observations from a re-analysis of the deposited data

How the results depend on the processing

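The 8 results were recomputed under 69 alternatives; 47 left a count within 1.5 times or a share or median within its interval, and 22 did not. The subsets hold fewer peaks by construction, and no share over all peaks or genes is given for them. For the median peaks per 10 kb of gene body the interval was 0 to 0.855, which no loss of peaks could leave. Its values of 0 with either top 10% and 0.0635 without blocks, against 0.4675, are thus among the 47. So are the shares of windows with CAAAACA or GTAAACA, which are other words. With the top 10% of peaks by maximum signal, 3 genes (Irs1, Irs2 and Igf1r) kept 4 peaks with a median of 321.5. By the authors' distances 1 of them, Irs1, kept a peak within 1 kb of an assigned TSS, as did 13 pathway genes. The Irs2 peak across the gene start was kept but does not count here, with an assigned distance of -1265 bp. Of the 4 peaks, 0% were blocks or held the insulin response sequence. With the top 10% by total signal, 4 genes kept 7 peaks with a median of 233, and again 0% were blocks or held the sequence. By the same distances, 2 genes and 19 pathway genes kept a peak within 1 kb of an assigned TSS. Peaks above the median of maximum signal left 28, with a median of 131.5 and 0% with the sequence. Without blocks 22 peaks remained, with a median of 121.5. Within 10 kb of the assigned TSS there were 24. Total signal over width, the mean coverage of a peak in place of its highest, had a median of 78.9. That is just below the interval of 79 to 111. Windows of 100 bp held the sequence in 1.54% of the 65 peaks, against 5.12% of all peak windows. With windows of 400 bp it was 12.3% against 19.3%. Only the window length was changed there. No paired analysis was possible because each antibody has 1 library. Unknown depth limits the absence of a peak: a gene without one may have signal under the authors' threshold.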
